A study of Mus musculus with 8 samples.

Results

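The *Ccnb1ip1*-*Pnp* gene run is a stretch of neighbouring genes on mouse chromosome 14. It was described through 9 of its genes, out of the 13704 genes with reads in Th17 cells with and without TRIM28: *Ttc5*, *Ccnb1ip1*, *Parp2*, *Tep1*, *Osgep*, *Apex1*, *Tmem55b*, *Pnp* and *Pnp2*. They were chosen by their position and selected on the KO/WT ratio of their counts in these same libraries, as neighbours that seemed to move together. Every ratio given here for them is therefore a description of the selected genes and carries no test.

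RNA-seq was done on 1 WT and 1 KO library, so no difference has a replicate check, and no age was given for the mice. WT cells came from C57BL/6 mice, and KO cells from TRIM28fl/flxCD4cre mice, labelled with the same strain, in which loxP-flanked *Trim28* alleles are cut by a Cre under the *Cd4* promoter, in all T cells that pass through the CD4-expressing stage in the thymus. Naive CD4+ T cells of both genotypes were activated through CD3 and CD28, kept for 3 days with 0.5 ng/ml TGFβ and 20 ng/ml IL-6, which turn them into IL-17-producing helper cells, and re-stimulated through CD3. How many mice or cultures stood behind a library is not given in the sources used here, and the 6 ChIP-seq samples of the series were not analysed here. TRIM28 is a co-repressor that KRAB zinc finger proteins bring to DNA, and the series asked how its deletion affects activation of genes in Th17 cells.

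The WT library held 6650066 reads over 13078 genes and the KO library 6185108 reads over 12754 genes. *Trim28* itself had 4485 reads in WT and 180 in KO, 674 against 29.1 CPM (reads per 1000000 reads of the library). Of the markers of the labelled cell type, *Cd3e* had 4407 reads in WT and 4778 in KO and *Cd4* 7904 and 6598, and *Il17a* (log2 fold change −2.44) and *Il17f* (−3.08) were over 2-fold lower in KO. B cell markers summed to 12.5 and 7.11 CPM with 5 of 5 read, CD8 and NK markers to 8.57 and 5.66 CPM with *Ncr1* and *Klrb1c* not listed, and myeloid markers to 3.46 and 3.07 CPM with *Lyz2*, *Csf1r* and *Adgre1* not listed. The 5 erythroid markers were not listed in either library. The part of these markers in the results below was not tested, and in bulk RNA fewer cells of a type and less RNA per cell cannot be told apart.

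The 9 genes sit together but do unrelated work. *Ccnb1ip1* encodes HEI10, a ubiquitin ligase needed for crossovers between chromosomes in meiosis, and is known mainly from germ cells. *Pnp* and *Pnp2* encode purine nucleoside phosphorylases, which split guanosine and inosine, and their deoxy forms, into base and sugar phosphate; loss of this enzyme in people leads to a lack of T cells. *Apex1* encodes the main endonuclease that cuts DNA at abasic sites in base excision repair, and *Parp2* encodes a poly(ADP-ribose) polymerase that responds to DNA breaks. *Osgep* encodes the catalytic subunit of the KEOPS complex, which makes the t6A modification of tRNA. *Ttc5* encodes a protein that binds nascent tubulin at the ribosome and starts the decay of tubulin mRNA, *Tep1* a component of the vault particle that also binds telomerase, and *Tmem55b* a phosphoinositide phosphatase of the lysosome membrane, listed in RefSeq as *Pip4p1*.

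In the RefSeq annotation of GRCm38.p6 the run spans 199.343 kb, chr14:50765409-50964751. From its lower end, *Ttc5* lies at chr14:50765409-50785520 on the minus strand and *Ccnb1ip1* at chr14:50789249-50795728 on the same strand. *Parp2* lies at chr14:50807897-50821301 on the plus strand and *Tep1* at chr14:50824059-50870579 on the minus strand, with 55 exons and the longest transcript of the run, 8163 bases. *Tep1* and the next gene with reads, *Osgep*, are 44794 bases apart. *Osgep* (chr14:50915374-50924893, minus) and *Apex1* (chr14:50924949-50927188, plus) point away from each other with 55 bases between them, and *Apex1* ends 26 bases before the end of *Tmem55b* (chr14:50927215-50931010, minus). *Pnp* (chr14:50944303-50953412) and *Pnp2* (chr14:50956141-50964751) follow each other on the plus strand, 2728 bases apart. Of the 14 genes annotated in the run, 10 had reads. The 4 others, *Klhl33*, *Gm26782*, *Gm52116* and *Gm52117*, were not listed in either library. The tenth with reads was *Rpph1*, the RNA subunit of RNase P, which cuts the leader off tRNA precursors. It lies inside the run at chr14:50807447-50807771 on the minus strand and is no member; it was taken in after its values were seen.

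Some of these genes cannot be counted apart from their neighbours in every annotation. In GENCODE M21, a longer transcript of *Ccnb1ip1* (*Ccnb1ip1*-202) starts with an exon of 233 bases, chr14:50807500-50807732, that lies wholly inside *Rpph1* on the same strand. *Apex1* and *Tmem55b* share 877 exonic bases there on opposite strands. The header of the deposited tables calls the counts unique reads. Whether that means unique in the genome or to a gene, which annotation was counted and whether strand was used are not given in the sources used here, so the reads of these pairs are given below both apart and summed.

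*Pnp* and *Pnp2* are near-identical copies, which bears on how their reads could be split. Their RefSeq coding sequences, of 870 and 918 bases, were the same at 852 of 870 aligned bases (97.9%), with 18 substitutions and 48 gap positions, and the longest identical stretch was 292 bases. Of all stretches of 50 bases, 14.7% of those in the *Pnp* transcript also occurred in the *Pnp2* transcript, and 36.2% of those in the *Pnp2* transcript occurred in *Pnp*. The stretch of 120 coding bases, without gaps, in which the copies differ most is shown for both, with the 8 differing bases in capitals, from bases 747 to 866 of the *Pnp* and 792 to 911 of the *Pnp2* coding sequence (RefSeq, GRCm38.p6).
Pnp: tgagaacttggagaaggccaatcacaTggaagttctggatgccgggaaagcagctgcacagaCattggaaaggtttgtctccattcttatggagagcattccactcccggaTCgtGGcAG
Pnp2: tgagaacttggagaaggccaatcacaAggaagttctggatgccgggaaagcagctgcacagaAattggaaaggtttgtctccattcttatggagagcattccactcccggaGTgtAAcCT

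Sequence is shown for both pairs of genes that start next to each other, and upstream of *Ccnb1ip1* and *Pnp*, which were both over 2-fold higher in KO. It covers the whole gap of *Osgep* and *Apex1*, the 69 of the 125 bases between *Rpph1* and *Parp2* that lie next to *Rpph1*, and 200 bases just upstream of *Ccnb1ip1* and *Pnp*. Capitals mark matches to 1 of 4 motifs on either strand. These were the CCAAT box, the GC box with the letters GGGCGG, and the E-box, which reads CACGTG on both strands. The last was a core site of nuclear receptors, whose letters are AGGTCA and, from the other strand, become TGACCT. The sequences are from the RefSeq assembly GRCm38.p6, 5′ to 3′, at chr14:50924894-50924948 (plus), chr14:50807772-50807840 (plus), chr14:50795729-50795928 (minus) and chr14:50944102-50944301 (plus), in this order.
Osgep to Apex1: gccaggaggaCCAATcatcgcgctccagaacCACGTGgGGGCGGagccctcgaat
Rpph1 to Parp2: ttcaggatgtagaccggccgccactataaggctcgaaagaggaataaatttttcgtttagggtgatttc
Ccnb1ip1 upstream: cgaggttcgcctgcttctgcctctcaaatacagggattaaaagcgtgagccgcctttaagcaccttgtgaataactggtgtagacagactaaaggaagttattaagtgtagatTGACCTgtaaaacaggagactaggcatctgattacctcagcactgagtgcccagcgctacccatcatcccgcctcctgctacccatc
Pnp upstream: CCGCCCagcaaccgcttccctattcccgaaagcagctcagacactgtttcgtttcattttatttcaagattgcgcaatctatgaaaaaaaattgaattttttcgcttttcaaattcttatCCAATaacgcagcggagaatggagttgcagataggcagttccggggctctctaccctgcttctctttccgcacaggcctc

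Over the 250 bases before a transcript start, the RefSeq table held a promoter for 7 of the 9 genes, all but *Tep1* and *Pnp2*. The window of *Parp2* begins inside *Rpph1* and runs past the annotated start of *Parp2*, and that of *Tmem55b* reaches into *Tmem55b* itself. Those of *Osgep* and *Apex1* reach into each other's gene. Matches and CpGs counted in these windows can thus lie within a gene. An E-box occurred in 4 of the 7 (*Parp2*, *Osgep*, *Apex1* and *Tmem55b*), against 6.02% of the 32851 promoters of the table. The windows of *Osgep* and *Apex1* overlap in the 55 bases between these genes, which hold an E-box, a CCAAT box and a GC box. CCAAT and the GC box occurred in 5 of 7 each, against 33.8% and 32.7% of all promoters. The nuclear receptor site occurred in *Ccnb1ip1* and *Osgep*, against 14.02%. TATAAA (12.4% of all promoters) and the STAT motif TTCNNNGAA (7.02%) occurred in 0 of 7. CpG dinucleotides numbered 7 in *Ccnb1ip1* and *Ttc5*, 11 in *Pnp*, 18 in *Parp2*, 23 in *Osgep*, 26 in *Tmem55b* and 28 in *Apex1*, and the median of all promoters was 6. The matches of *Parp2* lie outside the 69 bases shown. The background was all promoters of the table, not matched for CpG count or for reads in these cells. The letters of the GC box and of the E-box each hold a CpG. No promoter was linked to a change here.

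The genes of the run did not all move one way. A change was counted at 2-fold or more between the library-scaled counts, after 0.5 was added to each. It was counted for any gene whose reads in WT and KO added up to 10 or more, which all 9 genes met. *Ccnb1ip1* and *Pnp2* met this limit only through KO, with 0 and 1 reads in WT and 55 and 32 in KO. Of the 9 genes, 3 were at least 2-fold higher in KO (*Ccnb1ip1*, *Pnp2* and *Pnp*), where 3.75% of all 10881 such genes were. 1 of the 9, *Tep1*, was at least 2-fold lower, where 7.94% of all such genes were. The other 5 were under 2-fold. Since the genes were taken by this same ratio, nothing is read from these shares. The log2 fold change was above 0 for 8 of the 9, where it was for 48.6% of all 10881 genes. Its median over the 9 was 0.67 (that of *Osgep*, also when *Ccnb1ip1* is set at its lower bound), and the median of all 10881 genes was −0.02. Just inside the 2-fold limit were *Tep1* (2.01-fold lower) and *Pnp* (2.18-fold higher), and just outside were *Ttc5* (1.61-fold higher) and *Osgep* (1.59-fold higher). Intervals given with these values are exact 95% intervals that cover counting error only.

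**Figure D1:**
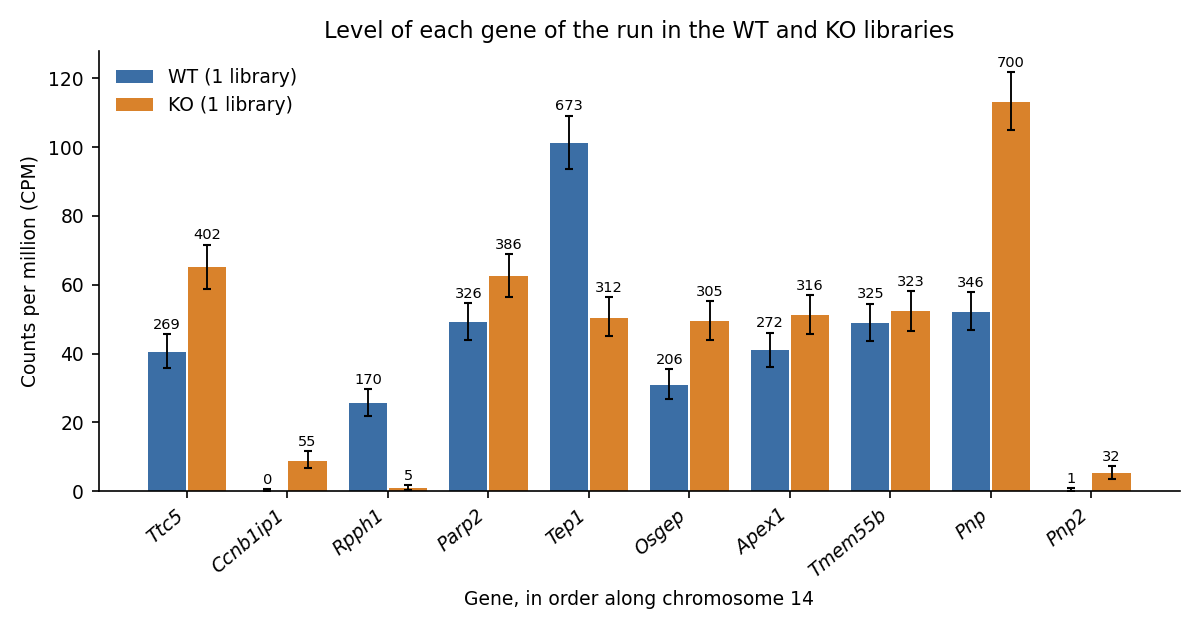
Level of each gene in the WT (blue) and KO (orange) libraries in CPM, in order along chromosome 14, with the read count above each bar and exact 95% Poisson intervals that cover counting error only. *Ccnb1ip1* and *Pnp2* had 0 and 1 reads in WT and 55 and 32 in KO, while *Rpph1* went the other way, from 170 to 5.

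*Ccnb1ip1* had no read in WT and 55 reads in KO, 0 against 8.89 CPM. Against a floor of 3 reads in the WT library, which is 0.451 CPM, it was 19.7-fold higher in KO. The figures draw this value as its lower bound, with the 55 KO reads taken as exact. The exact 95% interval of the ratio, which also takes the counting error of those reads, has its lower end at 15.5-fold. The meiotic gene was thus read in KO only, though its KO level per length, 5.90 RPKM (reads per kilobase of transcript and per 1000000 reads), stayed below the 27.2 RPKM of *Ttc5* next to it.

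*Rpph1*, whose exon holds the first exon of the longer *Ccnb1ip1* transcript, had 170 reads in WT and 5 in KO, 25.6 against 0.808 CPM. This was 31.6-fold lower in KO (interval 13.3 to 98.6). With the reads of *Ccnb1ip1* and *Rpph1* summed, the pair had 170 reads in WT and 60 in KO, a log2 fold change of −1.39 (−1.85 to −0.97). The direction of *Ccnb1ip1* thus turned when its reads were summed with those of *Rpph1*. Whether reads of the shared stretch were counted to one gene in WT and to the other in KO was not tested. The RNA of RNase P is not polyadenylated, and the libraries were made from mRNA. *Rpph1* was the only RNase P RNA with 10 reads or more, next to 1 snoRNA gene, *Snora81*, and 3 miRNA genes. *Snora81* had a log2 fold change of −1.02. The miRNA genes had a median of −0.81, with 0 at 2-fold in either direction, and protein-coding genes a median of −0.01.

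*Pnp* had 346 reads in WT and 700 in KO, 52.0 against 113 CPM, and was 2.18-fold higher in KO (1.91 to 2.48). *Pnp2*, its copy, had 1 read in WT and 32 in KO, 0.150 against 5.17 CPM, a ratio of 34.4 (5.75 to 1401). Reads given to *Pnp2* made up 0.288% of the reads of the pair in WT (exact interval 0.0073 to 1.60%) and 4.37% in KO (3.01 to 6.12%). Nearly all reads of the pair thus went to *Pnp* in both libraries. Summed, the pair had 347 reads in WT and 732 in KO, a log2 fold change of 1.18 (0.995 to 1.37), and reads left out at counting because they match both copies would be missing from this sum. The *Pnp2* value alone remains uncertain, since its transcript shares long stretches with *Pnp*.

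*Tep1* was the only gene of the 9 that was lower in KO. It had 673 reads in WT and 312 in KO, 101 against 50.4 CPM, a log2 fold change of −1.003 (−1.20 to −0.81). It stood at the edge of the 2-fold limit: with TMM or DESeq2 factors it was −0.98, and with the trend of fold change over transcript length taken off it was −0.56. Its transcript of 8163 bases is long against the median of 2921 bases over all genes with 10 reads or more.

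*Ttc5* had 269 reads in WT and 402 in KO, 40.5 against 65.0 CPM, and was 1.61-fold higher in KO (1.37 to 1.88). *Osgep* had 206 and 305 reads, 31.0 against 49.3 CPM, and was 1.59-fold higher. *Parp2* had 326 and 386 reads, 49.0 against 62.4 CPM, a log2 fold change of 0.35 (0.13 to 0.57). All 3 were higher in KO beyond counting error and under the 2-fold limit. With the length trend taken off, the log2 fold changes were 0.61 for *Ttc5*, 0.47 for *Osgep* and 0.19 for *Parp2*, against 0.68, 0.67 and 0.35.

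*Apex1*, which starts 55 bases from *Osgep*, had 272 reads in WT and 316 in KO, 40.9 against 51.1 CPM, a log2 fold change of 0.32 (0.08 to 0.56). Its value was 0.08 with the length trend taken off. *Tmem55b* had 325 and 323 reads, 48.9 against 52.2 CPM, and its log2 fold change of 0.10 (−0.13 to 0.32) had an interval that held 0, with a sign that turned (−0.10) when the length trend was taken off. The values of *Apex1* and *Tmem55b* summed, which share exonic bases on opposite strands, were 597 and 639 reads, a log2 fold change of 0.20 (0.04 to 0.37). A difference in *Tmem55b* alone was not detectable at this depth.

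**Figure D2:**
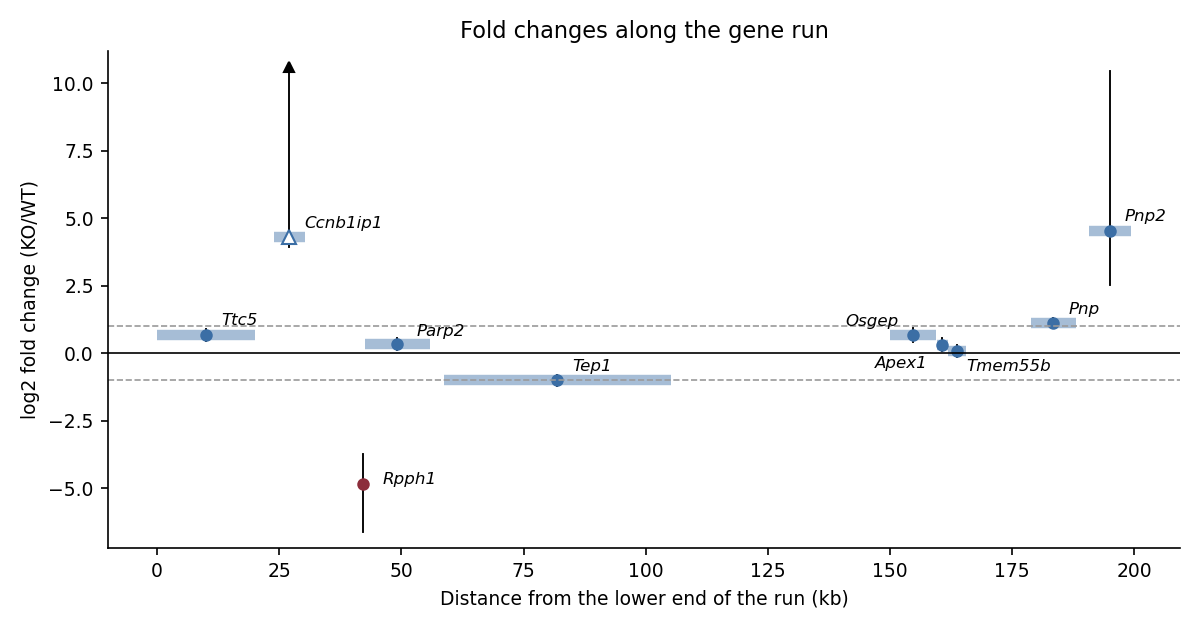
Log2 fold change (KO/WT) of each gene against the distance from the lower end of the run in kb. Bars show the extent of each gene, vertical lines exact 95% counting intervals, dashed lines the 2-fold limits and the red point *Rpph1*. The open triangle is the lower bound of *Ccnb1ip1* set by the floor of 3 WT reads. It lies above the lower end of the interval, which has no upper end. The large differences stand at *Ccnb1ip1*, *Rpph1* and *Pnp2*, and the genes between *Parp2* and *Tmem55b* stay within the 2-fold limits but for *Tep1*, on the lower limit.

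Taken in order, *Tep1* and the non-member *Rpph1* stood lower in KO among genes with values above 0. From the lower end, *Ttc5* and *Ccnb1ip1* were higher in KO, *Rpph1* 31.6-fold lower, *Parp2* 1.27-fold higher and *Tep1* 2.01-fold lower, and the genes from *Osgep* on were between 1.07-fold (*Tmem55b*) and 34.4-fold (*Pnp2*) higher. *Rpph1* and *Parp2*, which start 125 bases apart on opposite strands, differed in direction. *Osgep* and *Apex1*, which start 55 bases apart, both had log2 fold changes above 0, with intervals of 0.41 to 0.93 and 0.08 to 0.56. The 9 genes summed to 364 CPM in WT and 458 CPM in KO.

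Per length, the 7 genes with 10 reads or more in each library lay between 12.4 (*Tep1*) and 31.3 RPKM (*Apex1*) in WT and between 6.18 (*Tep1*) and 39.1 RPKM (*Apex1*) in KO. In WT the order of levels was *Apex1*, *Tmem55b* (30.4 RPKM), *Parp2* (26.9), *Osgep* (19.3), *Pnp* (17.7), *Ttc5* (16.9), *Tep1*, *Pnp2* (0.123) and *Ccnb1ip1* (0). Neighbours in this order had overlapping counting intervals except *Parp2* over *Osgep*, *Ttc5* over *Tep1* and *Tep1* over *Pnp2*. In KO, *Pnp* (38.5 RPKM) stood next to *Apex1*, followed by *Parp2* (34.3), *Tmem55b* (32.5), *Osgep* (30.7), *Ttc5* (27.2), *Tep1*, *Ccnb1ip1* (5.90) and *Pnp2* (4.23), and only *Ttc5* and *Tep1* were neighbours without overlap. *Pnp* thus went from rank 5 to rank 2, and the lowest ranks were held by the same 3 genes, *Tep1*, *Pnp2* and *Ccnb1ip1*, in both libraries. The spread over samples behind these ranks is unknown.

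**Figure D3:**
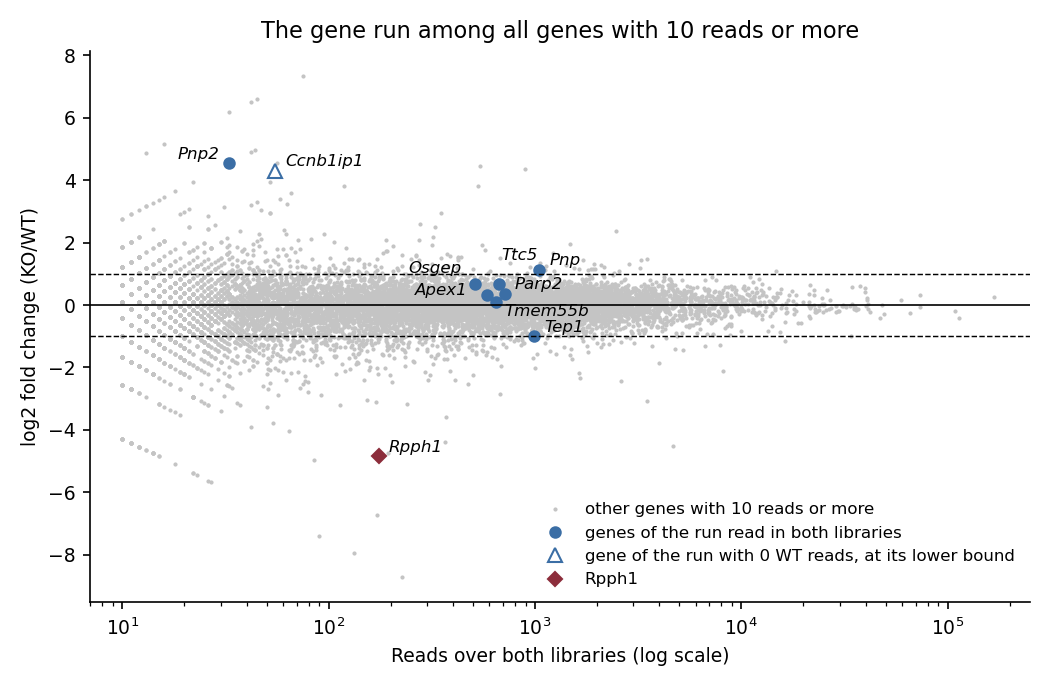
Log2 fold change (KO/WT, 0.5 added to each count) against the reads over both libraries (log scale) for all genes with 10 reads or more (grey), the genes of the run (blue) and *Rpph1* (red diamond), with dashed lines at 2-fold. *Ccnb1ip1*, drawn at its lower bound, and *Pnp2* rest on 55 and 33 reads in all, where grey points spread widely, and the other 7 genes on 511 to 1046 reads.

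The run lies in a stretch of the chromosome with few genes read in these cells. Within 1 Mb on each side, 57 protein-coding genes are annotated, among them 28 olfactory receptor (*Olfr*) genes and 15 genes of the RNase A family, and only 2 genes had 10 reads or more, both above the run. The nearest was *Mettl17*, a mitochondrial ribosome assembly factor, at 0.920 Mb, with 211 reads in WT and 227 in KO, a log2 fold change of 0.21 (−0.07 to 0.49). *Ndrg2*, of the N-myc downstream-regulated family, at 0.941 Mb and with 8 reads in WT and 22 in KO, stood at 1.51 on the log2 scale (0.34 to 2.94). Below the run, no gene within 1 Mb had 10 reads, and the nearest that did was *Naa30*, a subunit of an N-terminal acetyltransferase, at 1.57 Mb, with 449 and 269 reads and −0.63. *Rnase10*, 43 kb above *Pnp2*, had 0 and 1 reads. Within 2 Mb, 15 genes had 10 reads or more, of which 2 were at least 2-fold higher and 2 at least 2-fold lower in KO, with a median of −0.40. Over the whole of chromosome 14, 21 of 376 genes (5.59%) were at least 2-fold higher and 41 (10.9%) at least 2-fold lower.

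**Figure D4:**
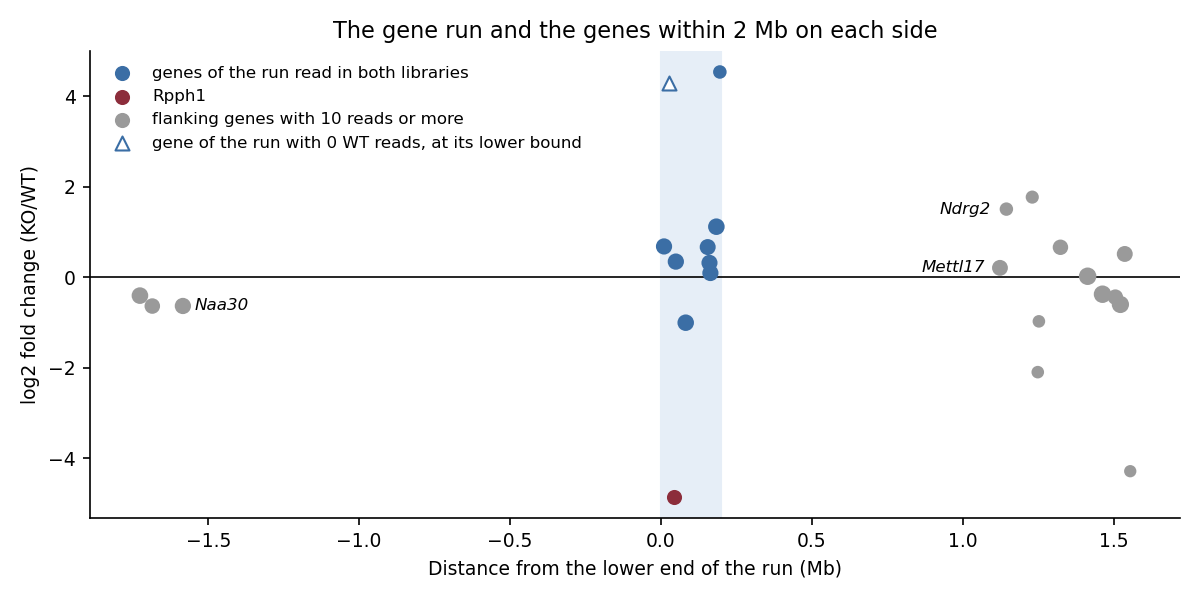
Log2 fold change (KO/WT) of the genes of the run (blue, shaded stretch), *Rpph1* (red) and the genes with 10 reads or more within 2 Mb on each side (grey), against the distance from the lower end of the run in Mb. Larger points have more reads, and the open triangle is the lower bound of *Ccnb1ip1*. No gene with 10 reads stands between *Naa30* and the run or between the run and *Mettl17*.

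The genes of the run were also set beside genes of the same pathways, which lie elsewhere in the genome. Meiotic crossover genes other than *Ccnb1ip1* did not reach 2-fold in either direction: of the 24 listed, 15 had reads and 11 had 10 reads or more, and the 10 without *Ccnb1ip1* had a median log2 fold change of −0.15, with 4 above 0. *Mlh3*, which encodes a subunit of the endonuclease that resolves crossovers, had 192 and 123 reads (−0.54, −0.88 to −0.20). *Rnf212*, the ligase that works against HEI10 in meiosis, and *Msh4* were not listed in either library, *Hfm1* had 0 and 1 reads and *Msh5* 0 and 2. Other meiotic genes were read in both libraries, such as *Prdm9*, which sets the sites of recombination, with 54 and 56 reads, and the cohesin subunits *Rec8*, with 38 and 19, and *Stag3*, with 20 and 20.

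Purine salvage genes other than the *Pnp* pair had a median of 0.10 over 16 genes with 10 reads or more, with 1 gene at least 2-fold higher, 0 lower and 11 above 0. The higher gene was *Xdh*, xanthine oxidoreductase, which oxidises hypoxanthine and xanthine downstream of *Pnp*, with 20 reads in WT and 50 in KO (1.41, 0.65 to 2.25). *Hprt*, which returns hypoxanthine and guanine to nucleotides, had 930 and 1007 reads (0.22, 0.09 to 0.35) and *Aprt*, which does so for adenine, 1195 and 1118 reads (0.01). *Dck*, the kinase of deoxynucleosides that become toxic when *Pnp* is lost, had 1268 and 1217 reads (0.05, −0.07 to 0.16). *Ada*, the deaminase that works just before *Pnp*, had 3 and 2 reads.

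Base excision repair and PARP genes, the list of *Apex1* and *Parp2*, held 0 genes at 2-fold in either direction among 25 with 10 reads or more. The 23 others had a median of 0.10, and 15 were above 0. *Parp1*, the abundant relative of *Parp2*, had 2122 and 2004 reads (0.02, −0.07 to 0.11), and *Xrcc1*, the scaffold that both recruit, 635 and 562 (−0.07, −0.24 to 0.09). Other genes of the list differed beyond counting error in both directions. Examples are *Polb*, with 141 and 183 reads (0.48, 0.16 to 0.81), and *Lig3*, with 638 and 434 (−0.45, −0.63 to −0.27). Of the other KEOPS and t6A genes, 4 had 10 reads or more, with a median of −0.05 and 0 at 2-fold. *Lage3*, a KEOPS subunit, had 240 and 294 reads (0.40, 0.15 to 0.65), and *Trp53rk*, the KEOPS kinase, had 29 and 33 (0.29, −0.47 to 1.06). *Yrdc*, which makes the substrate of KEOPS, had 394 and 279 reads (−0.39, −0.62 to −0.17), and *Cdkal1*, which modifies t6A further, 175 and 101 (−0.69, −1.06 to −0.33). *Tprkb* was read by 2 and 3 reads.

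Vault and telomerase genes other than *Tep1* had a median of 0.06 over 9 genes, with 0 at least 2-fold higher and 1 lower. The lower gene was *Naf1*, an assembly factor of H/ACA RNPs such as telomerase, with 264 and 113 reads (−1.12, −1.45 to −0.80). The other proteins of the vault went different ways: *Mvp*, the shell protein, had 669 and 875 reads (0.49, 0.34 to 0.64), and *Parp4*, the vault PARP, 889 and 481 (−0.78, −0.94 to −0.62). *Tert*, the reverse transcriptase, had 39 and 36 reads (−0.01).

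Tubulin genes, whose mRNA decay the *Ttc5* product starts, were higher in KO in 9 of 9 cases, with log2 fold changes from 0.42 to 1.26, a median of 0.81 and every counting interval above 0. Such an interval lay above 0 for 23.5% of all genes with 10 reads or more. *Tubb6* alone passed 2-fold, with 352 and 783 reads (1.26, 1.07 to 1.44). Tubulin genes are close copies, so their reads may be split between them with uncertainty. Of the partners in tubulin mRNA decay, *Scaper*, which links the *Ttc5* product to the deadenylase, had 139 and 52 reads (−1.31, −1.80 to −0.84), and *Cnot11*, a subunit of that deadenylase, 586 and 576 (0.08, −0.09 to 0.25). *Ep300*, the p300 acetyltransferase that the *Ttc5* product also binds, had 2694 and 1409 reads (−0.83, −0.92 to −0.74). Thus *Ttc5* and the tubulins were higher in KO, and *Scaper* was lower.

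Lysosomal and phosphoinositide genes other than *Tmem55b* had a median of −0.23 over 10 genes, with 1 at least 2-fold higher and 0 lower. The higher gene was *Tfeb*, a transcription factor of lysosomal genes, with 9 and 34 reads (1.97, 0.93 to 3.27). *Tmem55a*, the close relative of *Tmem55b*, had 221 and 153 reads (−0.42, −0.73 to −0.12).

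**Figure D5:**
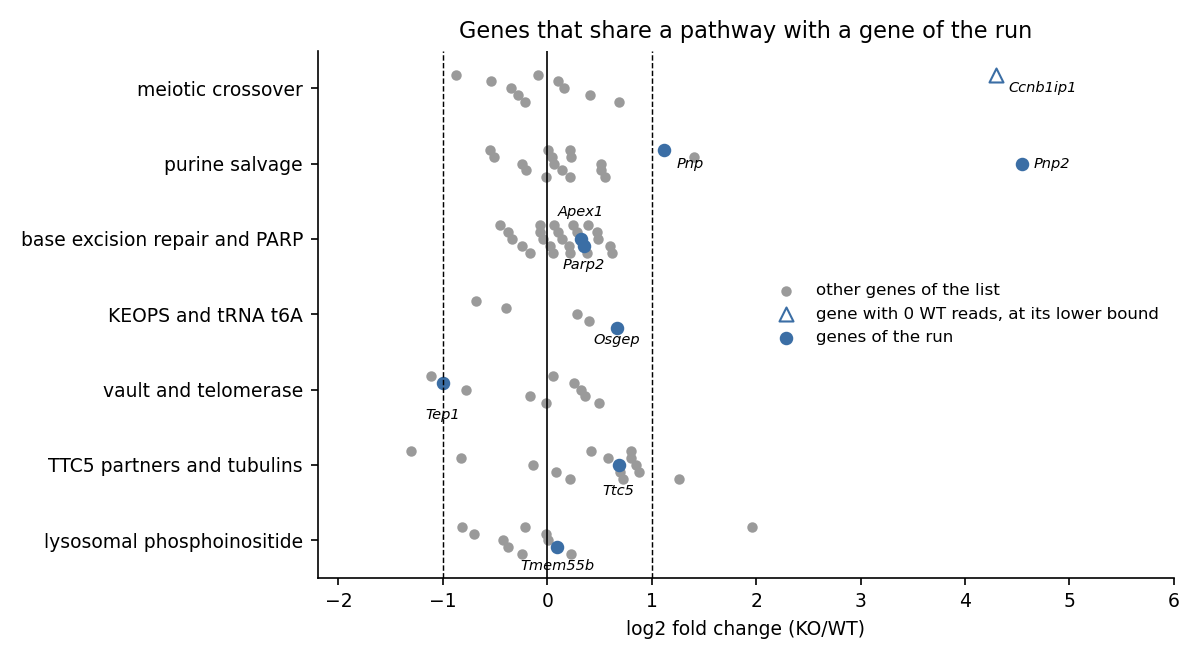
Log2 fold change (KO/WT) of every gene with 10 reads or more in the 7 pathway lists, with the genes of the run in blue, the other genes in grey and dashed lines at 2-fold. *Ccnb1ip1*, at its lower bound, and *Pnp2* stand apart from their lists, *Pnp* lies within the range of its list, below *Xdh*, and *Ttc5* lies among the tubulins.

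The genes of the run had few other features in common. Their longest RefSeq transcripts ran from 1223 (*Pnp2*) to 8163 bases (*Tep1*), and their GC content from 42.3% (*Ccnb1ip1*) to 55.1% (*Tmem55b*), against a median of 50.4% over all genes with 10 reads or more. Repeats, the soft-masked bases of the assembly, took up from 9.78% (*Apex1*) to 39.1% (*Pnp2*) of the gene spans, against a median of 22.7%. *Ccnb1ip1* held 33.4%, *Pnp* 23.6% and *Osgep*, which stayed under 2-fold, 37.6%.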

How the data were processed

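The authors deposited, for each RNA-seq library, unnormalized counts by gene symbol, which the header calls unique reads. Genes without reads are not listed and were given 0. Per the study's methods, reads were mapped to mm10 with SOAP2; the submitters' processing notes also list bcl2fastq, HTSeq, Bowtie and SICER 1.1, with no role. The counting step was not given in the sources used here.

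The 9 genes and the pathway and marker lists were chosen with earlier results of these data known. Named were all 9 genes, flanking genes at 2-fold within 1 Mb and the nearest with 10 reads on each side, of each list at most 4 genes at 2-fold and the direct partners of the members, and *Trim28*. *Rpph1*, *Snora81*, *Rnase10*, *Polb* and *Lig3* fall outside that rule and were named after their values were seen. *Prdm9*, *Rec8* and *Stag3*, named as other meiotic genes read in both libraries, also fall outside it.

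Counts were scaled to library totals, with 0.5 added for log2 fold changes. A gene counted as changed at 2-fold or more, with at least 10 reads over both libraries. Exact (Clopper-Pearson) intervals of the KO share of reads, and exact Poisson intervals of levels, were taken at 95% (SciPy 1.17.1). With 1 library per genotype no test was made. A gene with 0 WT reads was set against a floor of 3 reads, 0.451 CPM in WT and 0.485 CPM in KO. RPKM used the longest curated RefSeq transcript. Of 13704 symbols, 12838 matched RefSeq, 794 matched by an older symbol and 72 did not, and 99.4% of the genes with 10 reads had a length. Gene models, promoters and coding sequences came from RefSeq GRCm38.p6 and overlaps from GENCODE M21; coding sequences were aligned with Biopython 1.88, and protein sequences were not used here. Alternatives used TMM factors (edgeR 4.0.16), DESeq2 1.42.0 size factors, upper-quartile scaling, 5 added in place of 0.5, loess trends over transcript length and GC content taken off (statsmodels 0.14.6), other filters and windows, and summed gene pairs. Some genes of the lists are not reported here by name. The calculation was checked on simulated counts.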

Additional observations from a re-analysis of the deposited data

How the results depend on the processing

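No paired analysis was possible because there is 1 library per genotype, and no library could be left out. The number of genes at least 2-fold higher in KO was 3 under TMM, DESeq2 and upper-quartile scaling, 5 added counts and both trend corrections, 1 with at least 10 reads asked of each library, since *Ccnb1ip1* and *Pnp2* then drop out, 5 at a limit of 1.5-fold, and 2 without *Ccnb1ip1*, with *Pnp* and *Pnp2* summed or with *Ccnb1ip1* and *Rpph1* summed. The number at least 2-fold lower, 1 (*Tep1*), was 0 under TMM, DESeq2 and upper-quartile scaling, with 5 added and with the length trend taken off. The median log2 fold change, 0.67, was 0.35 with at least 10 reads asked of each library and 0.47 with the length trend taken off. It was 0.51 without *Ccnb1ip1*, and also with *Pnp* and *Pnp2* summed. Summing *Ccnb1ip1* with *Rpph1*, an alternative chosen after seeing the data (as were *Apex1* with *Tmem55b* and the value of *Pnp* summed with *Pnp2*), gave −1.39 for *Ccnb1ip1*, 2 genes at least 2-fold lower and a median of 0.35. Of 63 values of single genes under an alternative, 60 stayed within the counting interval. Among them were *Tmem55b*, whose 0.10 became −0.10 with the length trend taken off, and *Pnp2*, whose 4.54 became 2.73 with 5 added. The *Pnp2* interval is wide, 2.52 to 10.5 on the log2 scale, so staying within it does not mean a stable size. Of the rest, 1 left its interval and changed sign (*Ccnb1ip1* summed with *Rpph1*). The other 2 left it with the same sign: *Ccnb1ip1* (3.69 with 5 added, where the fitted 6.90 rests on the 0.5) and *Tep1* (−0.56 with the length trend taken off). Flanking genes with 10 reads or more numbered 0 within 0.5 Mb and 15 within 2 Mb, and 1 of the 2 within 1 Mb had 50 reads. Depth limits *Ccnb1ip1* and *Pnp2* most, and intervals cover counting error only.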
